A study of Mus musculus with 11 samples.

Results

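The cathepsin family of lysosomal proteases was followed in RNA from mouse lung, with Ctsk (cathepsin K, ENSMUSG00000028111) at the centre. The 9 genes were taken from a list of names: Ctsk, Ctsl (ENSMUSG00000021477), Ctss (ENSMUSG00000038642), Ctsb (ENSMUSG00000021939), Ctsh (ENSMUSG00000032359), Ctsc (ENSMUSG00000030560), Ctsz (ENSMUSG00000016256), Ctsd (ENSMUSG00000007891) and Ctse (ENSMUSG00000004552). They are 9 of 23255 genes in the deposited table, and 8 of the 9 reached the minimum mean level of 1 used for fitting, as did 16225 genes in all. Ctse did not reach it. The members were chosen by family with the measured values of these same libraries in view, the differences of Ctsk between the groups among them, so those differences are given below as a description and support nothing by themselves.

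The study compared 3 groups of C57BL/6 mice in work on osimertinib-induced pneumonitis. The control group had 3 libraries from untreated mice, the naphthalene group had 3 libraries from mice given naphthalene, and the osimertinib group had 5 libraries from mice given naphthalene and then osimertinib. Naphthalene is an airway toxicant whose metabolites injure club cells, and osimertinib is an inhibitor of mutant EGF receptor used in lung cancer. Both later groups thus carry the naphthalene injury, and no group received osimertinib without it. Doses, times and ages of the mice are not given in the sources used here, and nothing says whether libraries of a group came from separate mice, so the spread between them may be technical.

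Cathepsins are made as inactive precursors, carried to the lysosome and activated there at acid pH. Most are cysteine proteases, held in check by cystatins, while cathepsins D and E are aspartic proteases. In the lung they work in macrophages that digest engulfed material, in antigen-presenting cells that trim the invariant chain of MHC class II, and in alveolar type 2 cells that process surfactant proteins. Cathepsin K is the main collagen-degrading protease of osteoclasts, and it also cleaves elastin. Outside bone it is made by activated fibroblasts and some macrophages.

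Values are in CPM, gene reads set against a library size that the authors had scaled between libraries. Recovered reads per library ran from 5045361 to 13009975. Naphthalene 1, 2 and 3 and osimertinib 2 stood apart. In these 4 libraries a single gene (ENSMUSG00000119584, unnamed in GENCODE M21) took 43.9% to 60.3% of the reads, against at most 0.0337% in the other 7. That left 2018541 to 2965328 reads for all other genes in those 4 libraries and 8418669 to 13006929 in the other 7, so 1 read was worth 0.265 to 0.459 units in the former and 0.0568 to 0.0891 in the latter. Because every naphthalene library is of this kind and no control library is, that feature and the group cannot be told apart in the comparison of these 2 groups. It is missing from 4 of the 5 osimertinib libraries, whose mice also received naphthalene. In osimertinib against naphthalene it thus also parts the groups, apart from osimertinib 2, and for the other 4 it cannot be told apart from the treatment. Osimertinib 3 also stood apart, with the highest summed level of macrophage genes (9066, against 2963 to 5299 in the other 10 libraries) and of alveolar type 2 genes (30037, against 12807 to 20577). All 10 alveolar type 2 genes and all 8 club cell genes listed were read in every library, so the markers of the labelled tissue were present.

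Promoter sequences of 2 members are shown because Ctsk and Ctss, which lie close to each other on chromosome 3, had the 2 smallest unadjusted p-values of the family for osimertinib against control. RefSeq entries in the GRCm38.p6 assembly were found for 6 of the 9 members, and not for Ctsb, Ctse and Ctsh. Each window is the 250 bases before the annotated start, read 5′ to 3′ on the gene's strand, which is the plus strand for both, at chr3:95498960-95499209 for Ctsk and chr3:95526536-95526785 for Ctss. Capitals mark GAAA followed by any 2 bases and GAAA again, a pattern of the kind bound by interferon regulatory factors, here 21 to 12 bases before the start of Ctss.
Ctsk: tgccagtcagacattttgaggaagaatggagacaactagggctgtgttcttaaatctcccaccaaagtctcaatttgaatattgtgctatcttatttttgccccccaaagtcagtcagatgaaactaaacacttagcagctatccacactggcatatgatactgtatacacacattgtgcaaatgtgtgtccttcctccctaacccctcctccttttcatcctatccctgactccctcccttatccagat
Ctss: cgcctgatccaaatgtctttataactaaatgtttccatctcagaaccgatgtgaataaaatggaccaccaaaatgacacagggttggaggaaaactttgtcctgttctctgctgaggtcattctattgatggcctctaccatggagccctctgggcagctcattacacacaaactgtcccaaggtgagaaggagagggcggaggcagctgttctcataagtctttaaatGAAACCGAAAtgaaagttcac

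The other windows shown are those that held CACGTG, the core of the element bound by the MiT/TFE factors that drive lysosomal genes. Each is a 30-base stretch on the minus strand, at chr7:142388048-142388077 (Ctsd, far) and chr7:142387908-142387937 (Ctsd, near) and at chr13:64370739-64370768 (Ctsl). In the near stretch of Ctsd the capitals mark the longer form TCACGTGA, which contains CACGTG.
Ctsd far: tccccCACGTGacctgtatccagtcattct
Ctsd near: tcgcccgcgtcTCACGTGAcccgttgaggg
Ctsl: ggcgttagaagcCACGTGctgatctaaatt

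Searched on both strands in the same 250 bases of 32841 RefSeq promoters, CACGTG was present in 6.02%, TCACGTGA in 0.786%, the related TCATGTGA in 0.847%, the AP-1 type pattern TGANTCA in 6.75% and the paired GAAA pattern in 2.98%. The windows of Ctsk, Ctsc and Ctsz held none of these 5 patterns. Ctsd held CACGTG at 245 to 240 and again at 98 to 93 bases before its start, and Ctsl held it at 236 to 231. The GC content of the window was 43.2% for Ctsk, 44.8% for Ctss, 47.2% for Ctsl, 58.8% for Ctsz, 60.4% for Ctsc and 67.2% for Ctsd, against a median of 52.4% over all promoters. A match is a description of letters, and no binding was measured here. In GENCODE an exon of the same gene overlaps 211 of the 250 bases of the Ctsd window and 48 of those of Ctsl, so these windows lie partly inside annotated transcripts, while those of Ctsk and Ctss overlap no exon.

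To set the genes against each other, levels were divided by the length of 1 annotated transcript each. In the control lungs the order of the level per kilobase was Ctsd 132 ± 6.55 (SD, n = 3), Ctsh 74.9 ± 6.13, Ctsc 62.8 ± 6.12, Ctss 55.9 ± 2.13, Ctsb 44.9 ± 2.26, Ctsl 36.9 ± 0.787, Ctsz 34.5 ± 1.38, Ctsk 4.86 ± 0.344 and Ctse 0.375 ± 0.189. Neighbours in this order from Ctsh to Ctss, and Ctsl with Ctsz, lay within 2 SD of each other by the larger SD, while Ctsd stood clear above and Ctsk and Ctse clear below. Ctsk, the collagenase, thus contributed 1.09% of the summed level per kilobase of the 9 genes in control, 1.38% in naphthalene and 1.77% in osimertinib lungs. Ctsd, an aspartic endopeptidase, contributed 29.5%, 28.7% and 34.0%.

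**Figure D1:**
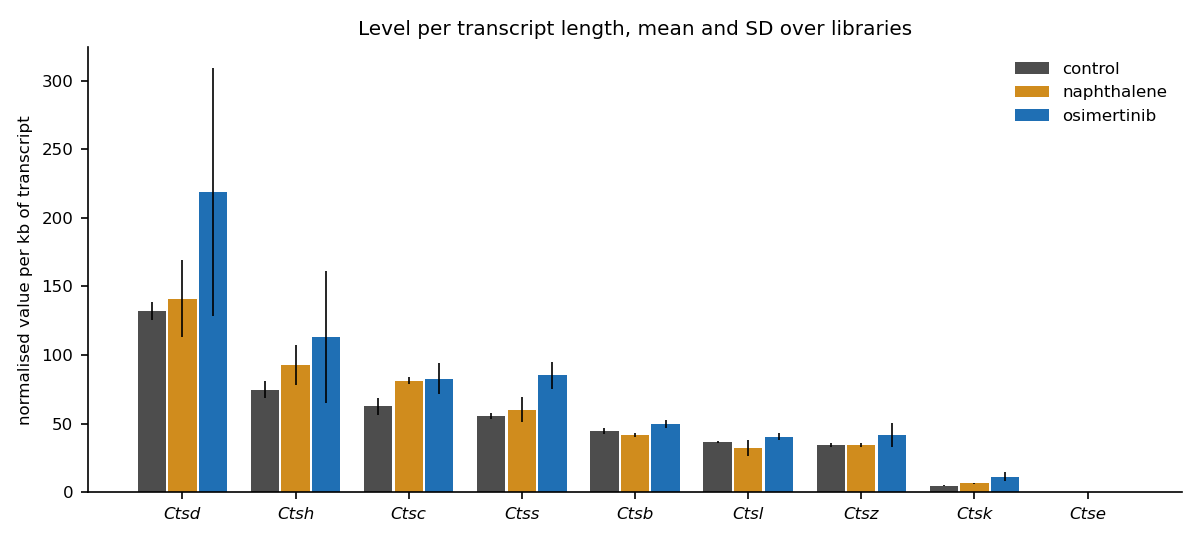
Level per kilobase of transcript for the 9 cathepsins, as the mean of each group with the SD over libraries as a black line (3 control, 3 naphthalene, 5 osimertinib). Ctsd was highest and Ctsk and Ctse lowest in each group, and the long SD lines of osimertinib Ctsd and Ctsh come with the single library osimertinib 3.

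Ctsk was low but was read in every library. Its value was 6.76, 7.53 and 7.75 in control 1 to 3 (115 to 119 reads). It was 9.79, 9.89 and 11.01 in naphthalene 1 to 3 (24 to 31 reads). It was 18.9, 13.8, 24.2, 18.1 and 11.1 in osimertinib 1 to 5 (52 to 272 reads). All naphthalene libraries were above all control libraries and all osimertinib libraries above all naphthalene libraries, but the lowest osimertinib library (osimertinib 5, 11.13) and the highest naphthalene library (naphthalene 3, 11.01) all but touched. The 95% exact Poisson interval was 9.50 to 12.9 for osimertinib 5 and 7.06 to 16.4 for naphthalene 3. The interval of naphthalene 1, 6.65 to 13.9, reached into the 6.41 to 9.30 of control 3. These intervals cover counting error only. Means were 7.35 ± 0.520 in control, 10.2 ± 0.681 in naphthalene and 17.2 ± 5.05 in osimertinib, a ratio of 1.39 for naphthalene to control, 1.68 for osimertinib to naphthalene and 2.34 for osimertinib to control. In whole lung, more RNA per cell and more cells of a type that makes a gene cannot be told apart, here and throughout.

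An order of control below naphthalene below osimertinib with no overlap between groups was found for 4 of 16225 genes, or 0.0247%. They were Ctsk, Mmp2 (a matrix metalloproteinase that cleaves denatured collagen), Ulk2 (a kinase that starts autophagy) and Glipr1. Mmp2 had values of 35.4 ± 0.243 in control, 48.4 ± 7.51 in naphthalene and 74.8 ± 7.11 in osimertinib lungs. Since Ctsk was singled out for its differences between these groups, its place among these 4 is a description.

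**Figure D2:**
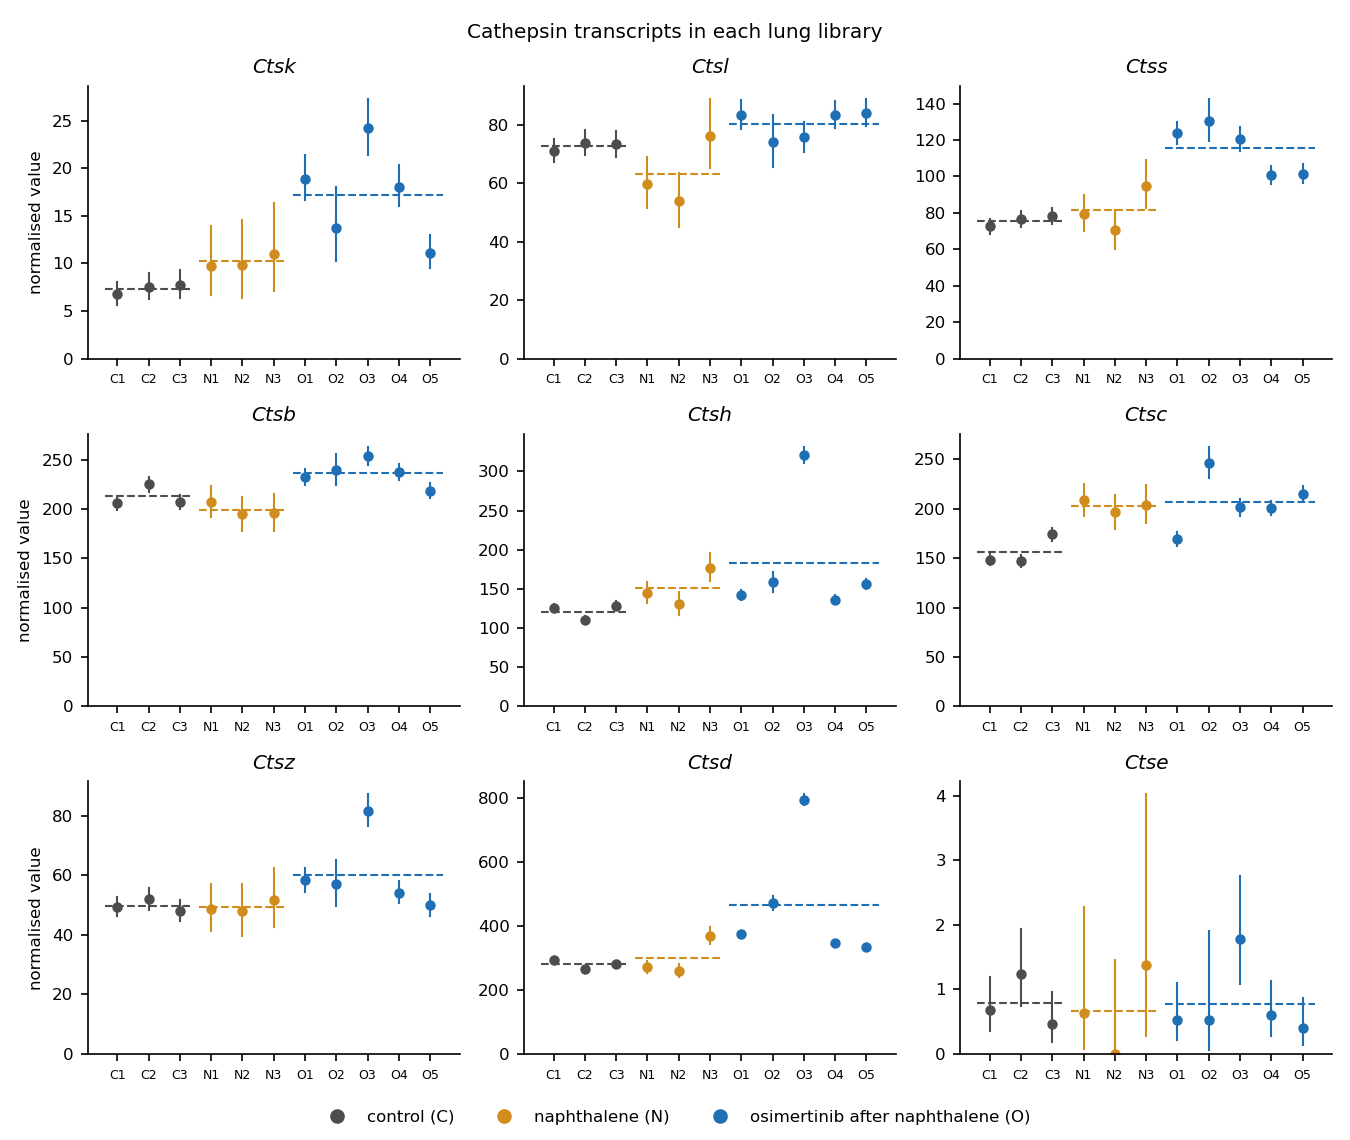
Normalised value of each cathepsin (vertical axes from 0, a separate scale for each gene) in each of the 11 libraries, with 95% exact Poisson intervals as vertical lines and the group mean as a dashed line. Ctsk steps from 6.76 to 7.75 in control through 9.79 to 11.01 in naphthalene to 11.1 to 24.2 in osimertinib, while Ctsh, Ctsz and Ctsd show osimertinib 3 far above the other 4 osimertinib libraries.

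Ctss and Ctsl are the endopeptidases that remove the invariant chain from MHC class II, Ctss in professional antigen-presenting cells and Ctsl in thymic epithelium and some other cells. Ctss was 72.6, 76.5 and 78.2 in control, and 79.6, 70.4 and 95 in naphthalene libraries. In osimertinib 1 to 5 it was 124, 131, 121, 101 and 102. The osimertinib libraries were all above both other groups, and those 2 groups overlapped. Mean Ctss was 75.7 ± 2.89, 81.7 ± 12.4 and 115 ± 13.5 in control, naphthalene and osimertinib, so the osimertinib mean was 1.52 times that of control and 1.41 times that of naphthalene.

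Ctsl was 71.0, 73.9 and 73.4 in control, 59.7, 53.8 and 76.2 in naphthalene and 83.4, 74.1, 75.6, 83.3 and 84.0 in osimertinib libraries. Every osimertinib library was above every control library, by little, and the naphthalene group was scattered on both sides of control. Mean Ctsl was 72.7 ± 1.55, 63.2 ± 11.6 and 80.1 ± 4.80.

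Ctsb, which cleaves proteins internally and also trims dipeptides from their C-terminal ends, varied least. It was 206, 225 and 207 in control, 207, 195 and 196 in naphthalene and 233, 239.6, 254, 238 and 219 in osimertinib libraries. The osimertinib libraries were all above the naphthalene libraries, and overlapped control. Means were 213 ± 10.7, 199 ± 7.05 and 236 ± 12.7.

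Among the exopeptidases, Ctsc (dipeptidyl peptidase I, which activates granule serine proteases of leukocytes) had higher means in both treated groups. It was 148, 147 and 174 in control, 209, 196 and 204 in naphthalene and 169, 246, 201, 200.2 and 215 in osimertinib libraries. All 3 naphthalene libraries were above control, and the osimertinib libraries spread across the range of both groups. The naphthalene mean, 203 ± 6.34, was 1.3 times the control mean of 157 ± 15.3, and the osimertinib mean was 206 ± 28.0.

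Ctsh, an aminopeptidase that also takes part in processing surfactant proteins B and C in alveolar type 2 cells, was 125, 109.7 and 128 in control and 144, 131 and 177 in naphthalene libraries. In osimertinib 1 to 5 it was 143, 159, 321, 136 and 156. Both treated groups were above control in every library, and they overlapped each other apart from osimertinib 3, which was far above all. Means were 121 ± 9.91, 151 ± 23.5 and 183 ± 77.7.

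Ctsz, a carboxypeptidase that removes single residues, was between 47.9 and 51.9 in all 6 control and naphthalene libraries. In osimertinib 1 to 5 it was 58.3, 56.9, 81.7, 54.2 and 50.0. Only osimertinib 5 fell inside the range of the other groups, and osimertinib 3 again was far above the rest. Means were 49.8 ± 1.99, 49.4 ± 2.12 and 60.2 ± 12.4.

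The aspartic protease Ctsd, which also helps to activate cysteine cathepsins, was the most abundant member. It was 295, 267 and 281 in control and 271, 261 and 369 in naphthalene libraries. In osimertinib 1 to 5 it was 375, 472, 795, 347 and 336. Every osimertinib library was above control, and only naphthalene 3 reached into their range. Means were 281 ± 13.9, 300.3 ± 60.1 and 465 ± 192, and the osimertinib mean was 1.66 times the control mean.

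Ctse, the aspartic protease of stomach and of some immune cells, was close to absent. It had 0 to 20 reads per library and values of at most 1.78, in osimertinib 3. In naphthalene 2 it had 0 reads, a count that allows up to 3 reads or 1.19 units as a one-sided limit (1.46 as the upper end of the 2-sided interval plotted), so a difference between groups was not detectable at this depth. Group means were 0.798 ± 0.401, 0.669 ± 0.689 and 0.769 ± 0.571.

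Group differences were then read from a single fit over all genes (limma on log2 of the value plus 1, 3 groups, Benjamini-Hochberg adjustment over 16225 genes, a gene being called where the adjusted p was under 0.05). For naphthalene against control, with 0% of all genes called, limma called 0 of the 8 fitted cathepsins. So did edgeR (0% of all genes), DESeq2 (0.0681%) and limma with a weight for each library (0.0308%). DESeq2 gave no adjusted p for 11369 of the 16142 genes in its share, Ctsk among them, and these could not be called. 1 of the 8, Ctsc, had an unadjusted p under 0.05, as had 7.46% of all genes. The log2 differences were 0.43 (SE 0.23) for Ctsk, 0.38 (SE 0.13) for Ctsc, 0.31 (SE 0.26) for Ctsh, 0.10 (SE 0.13) for Ctss, 0.08 (SE 0.27) for Ctsd, -0.01 (SE 0.15) for Ctsz, -0.09 (SE 0.09) for Ctsb and -0.21 (SE 0.12) for Ctsl. The median over the 8 was 0.09, beside -0.06 over all genes. Ctsk, Ctsh and Ctsc were higher without overlap, 3 of 8, where 4.94% of all genes were higher and 11.2% lower without overlap, and no cathepsin was lower without overlap.

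These 3 differences depended on the scale. With library totals made equal after leaving out the gene that filled the naphthalene libraries, the median gene moved to -0.47, Ctsk to 0.02, Ctsc to -0.08 and Ctsh to -0.15. Such a rescaling multiplies all genes of a library alike, so the gap of each gene to the median gene is nearly fixed in advance. For Ctsk it was 0.49 on both scales, which therefore adds no support.

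For osimertinib against naphthalene, limma called 0 of the 8 (0% of all genes), as did edgeR (0%), DESeq2 (0.13%) and limma with library weights (0.0247%). 5 of the 8 had an unadjusted p under 0.05, as had 10.3% of all genes. The log2 differences of the endopeptidases were 0.66 (SE 0.20) for Ctsk, 0.57 (SE 0.25) for Ctsd, 0.50 (SE 0.12) for Ctss, 0.35 (SE 0.11) for Ctsl and 0.24 (SE 0.08) for Ctsb. Those of the exopeptidases were 0.26 (SE 0.13) for Ctsz, 0.21 (SE 0.24) for Ctsh and 0.01 (SE 0.12) for Ctsc. The median over the 8 was 0.30, beside 0.06 over all genes, and all 8 were above 0, as were 9819 of 16225 genes. Ctsk, Ctss and Ctsb were higher without overlap, 3 of 8, beside 3.82% of all genes higher and 2.12% lower. Ctsh changed sign to -0.01 without osimertinib 3. In osimertinib 2, the only osimertinib library filled by the unnamed gene as the naphthalene libraries were, the difference from naphthalene was 0.40 for Ctsk, 0.68 for Ctss and 0.67 for Ctsd. Ctsk there rested on 52 reads, and its 95% exact Poisson interval, 10.3 to 18.1, overlapped that of each naphthalene library. The intervals of Ctss and Ctsd in osimertinib 2 did not overlap theirs. These are values of a single library.

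For osimertinib against control, limma called 0 of the 8 (0.00616% of all genes) and edgeR called 0 (0.00616%), while DESeq2 called 2 (0.465%) and limma with weights for each library called 2 (0.918%). 5 of the 8 had an unadjusted p under 0.05, as had 4.8% of all genes. The 2 genes were Ctsk and Ctss under both rules. For Ctsk the limma log2 difference was 1.08 (SE 0.20, adjusted p = 0.313) and the DESeq2 value was 1.25 (adjusted p = 0.000365). The limma value with library weights was 1.03 (adjusted p = 0.00611), and Ctsk was higher than every control in 5 of 5 osimertinib libraries. For Ctss they were 0.59 (SE 0.12, adjusted p = 0.313), 0.62 (adjusted p = 0.00133) and 0.53 (adjusted p = 0.0107), again with 5 of 5 libraries above control. The edgeR quasi-likelihood test gave adjusted p = 0.185 for Ctsk and 0.188 for Ctss.

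The other limma differences against control were 0.65 (SE 0.25) for Ctsd, 0.51 (SE 0.24) for Ctsh, 0.39 (SE 0.12) for Ctsc, 0.25 (SE 0.13) for Ctsz, 0.15 (SE 0.08) for Ctsb and 0.14 (SE 0.11) for Ctsl. The median over the 8 was 0.45, beside -0.01 over all genes, and all 8 were above 0, as were 7787 of 16225 genes. Ctsk, Ctsl, Ctss, Ctsh and Ctsd were higher without overlap, 5 of 8, beside 2.91% of all genes higher and 3.43% lower. Comparisons with control and with naphthalene share the osimertinib libraries, so they are not independent of each other.

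**Figure D3:**
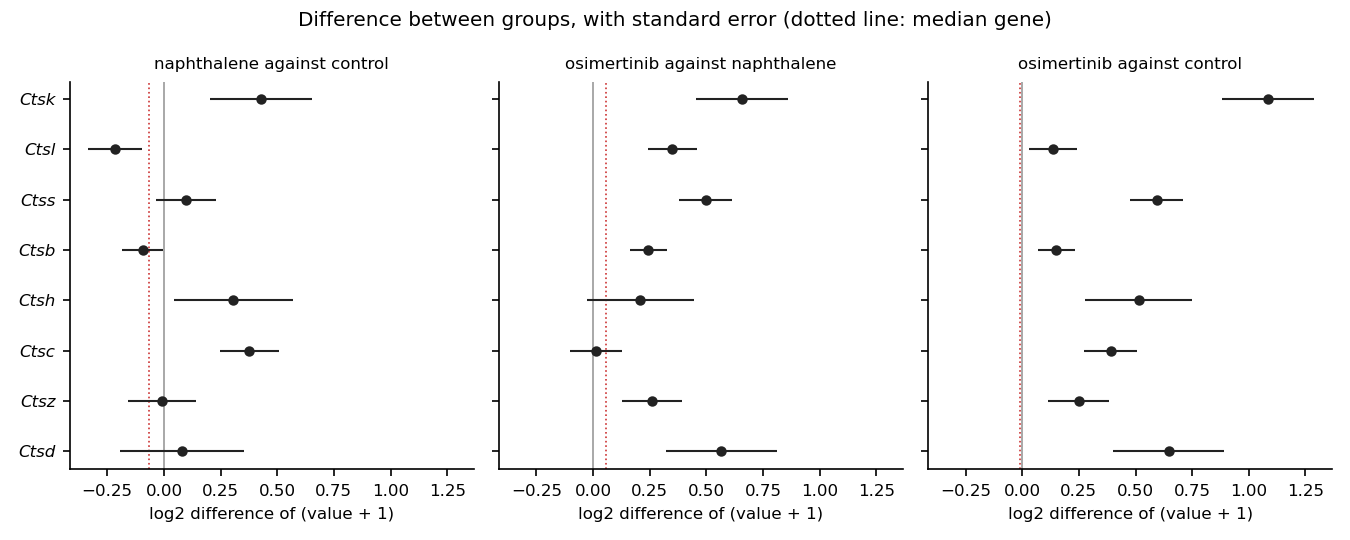
Log2 difference of (value + 1) between groups for the 8 fitted cathepsins, as points with the standard error of the limma fit, in 3 panels with 1 horizontal scale. The dotted line is the median of all 16225 genes, and Ctsk has the highest point in each panel, at 0.43, 0.66 and 1.08.

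Leaving out osimertinib 3 changed the members unequally. Against control, Ctsk moved from 1.08 to 0.95 and Ctss from 0.59 to 0.58. Ctsd moved from 0.65 to 0.43, Ctsh from 0.51 to 0.29 and Ctsz from 0.25 to 0.14, and the median over the 8 from 0.45 to 0.34. Ctsc was at 0.40 and Ctsl at 0.16 without that library. Within the 7 libraries not filled by the unnamed gene, that is without osimertinib 2, the difference from control was 1.15 for Ctsk, 0.55 for Ctss, 0.62 for Ctsd and 0.54 for Ctsh.

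The plot of alternatives shows the same values under other scalings, where equal totals means dividing each library by the sum of all its values. That choice lets the unnamed gene set the scale of the naphthalene libraries, and it moved all 8 cathepsins together with the median gene.

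**Figure D4:**
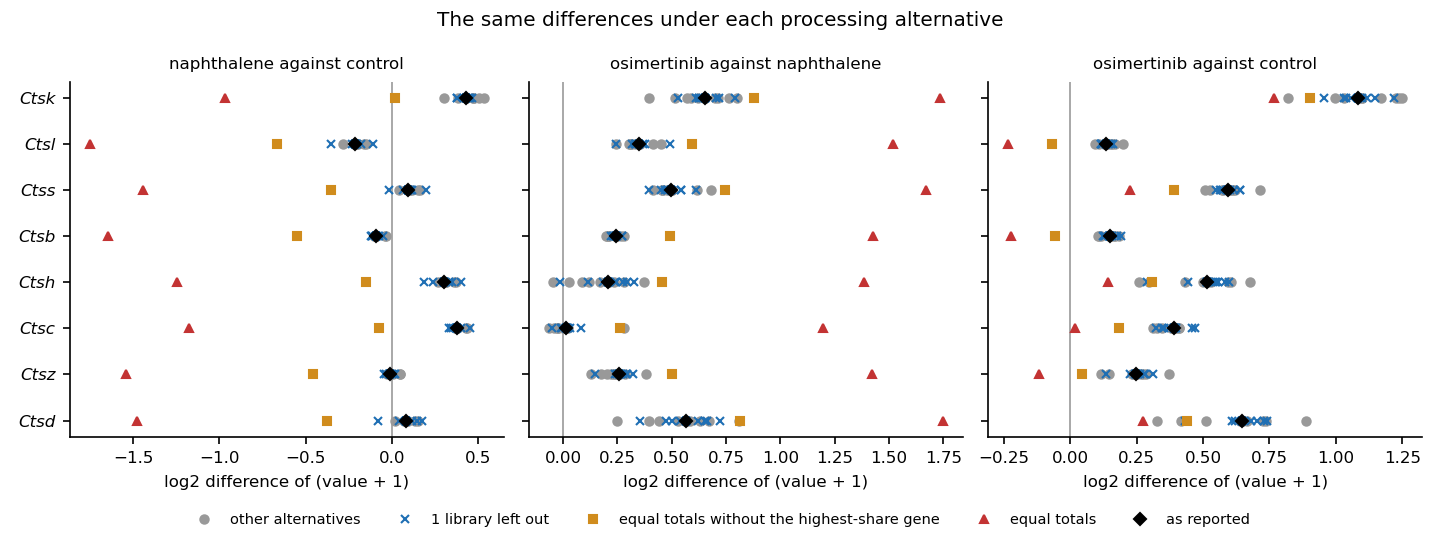
Log2 difference of (value + 1) for each cathepsin as reported (black diamond) and under every processing alternative, with 1 library left out (blue crosses), with equal totals (red triangles), with equal totals without the highest-share gene (orange squares) and under the others (grey points), on a separate horizontal scale for each comparison. For osimertinib against control Ctsk spans 0.77 to 1.25 and Ctss 0.22 to 0.71, all above 0.

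Shares within the family do not depend on library scaling. Ctsk made up 0.694%, 0.785% and 0.776% of the reads of the 9 cathepsins in control 1 to 3. Its share was 0.951%, 1.03% and 0.932% in naphthalene 1 to 3 and 1.57%, 0.988%, 1.29%, 1.54% and 0.949% in osimertinib 1 to 5. Ctsk thus took a larger share than in any control in all 8 treated libraries. The shares of osimertinib 2 and osimertinib 5 lay within the naphthalene range. Wilson intervals at 95% cover counting error only. In naphthalene 1 to 3 (31, 25 and 24 reads) they were 0.671% to 1.35%, 0.696% to 1.51% and 0.627% to 1.38%. These and that of osimertinib 2 (0.755% to 1.29%) held the highest control share, 0.785%. Taken singly, these libraries were thus within counting error of control. Intervals of the other osimertinib libraries lay above 0.785%, from 0.816% in osimertinib 5. Ctss made up 7.45% to 7.97% in control, 7.30% to 8.04% in naphthalene and 6.43% to 10.3% in osimertinib libraries, lowest in osimertinib 3, where Ctsd alone took 42.4%.

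The inhibitors and the rest of the lysosome were read from lists of their own, and no gene of these lists was called by limma or edgeR in any comparison. Together with the granule protease and MHC class II genes read below, 70 genes were fitted. Of these, DESeq2 and limma with library weights each called 0 between naphthalene and control, beside 0.0681% and 0.0308% of all genes. Between osimertinib and naphthalene each called 0, beside 0.13% and 0.0247%. Between osimertinib and control each called 2 (2.86%), beside 0.465% and 0.918%. An unadjusted p under 0.05 was found for 2.86%, 15.7% and 14.3% of the 70 in that order, beside 7.46%, 10.3% and 4.8% of all genes. Among the other cathepsins, Ctsf, a cysteine protease, had log2 differences of 0.55 (SE 0.15) for osimertinib against naphthalene and 0.37 (SE 0.15) against control. Ctsa, a carboxypeptidase that also protects other lysosomal enzymes, was at 0.11 and 0.15, and Ctso at 0.18 and 0.04. Against control 3 of these 4 genes were above 0.

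For the cystatins and other cathepsin inhibitors, 4 of 9 genes had enough reads to be fitted, with a median of 0.35 for osimertinib against naphthalene and 0.30 against control. Without osimertinib 3 the medians were 0.07 and 0.05. Cst3 (cystatin C, the main secreted inhibitor of cysteine cathepsins) was 272 ± 25.2 in control, 256 ± 110 in naphthalene and 415 ± 255 in osimertinib lungs, with 871 in osimertinib 3 and 294 to 312 in the other 4 osimertinib libraries. Cstb, a cystatin kept inside cells, was 18.9 ± 1.98, 19.8 ± 11.5 and 28.6 ± 22.4.

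The 8 genes that sort and mature cathepsins had medians near 0, at 0.02 between naphthalene and control, 0.04 between osimertinib and naphthalene and 0.05 between osimertinib and control. Sort1, a sorting receptor, had a log2 difference of 0.11 for osimertinib against control, and Igf2r, the large mannose 6-phosphate receptor, at 0.02. Psap, the precursor of the saposins that serve sphingolipid breakdown, was at 0.06. Lgmn (legumain), the protease that processes several cathepsins to their 2-chain forms, was 50.6 ± 0.904, 55.3 ± 5.47 and 58.6 ± 4.64 in the 3 groups, a gene picked out after its values were seen.

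Genes of the lysosome membrane and proton pump had a median of 0.14 for osimertinib against naphthalene and 0.19 against control, with 14 and 13 of 14 above 0. Lamp1 was at 0.12, Lamp2 at 0.14 and Scarb2, the receptor that carries glucocerebrosidase, at 0.18 against control. The 27 other lysosomal hydrolases had medians of 0.05 and 0.10, with 18 and 21 above 0. Of the MiT/TFE transcription factors, Mitf was at 0.45 against control, Tfe3 at -0.12 and Tfeb at -0.01. Tfec, the member expressed mainly in myeloid cells, was at 0.72 (SE 0.19) and Atp6v0d2, a pump subunit of osteoclasts and macrophages, at 0.75 (SE 0.19). Both were chosen here after their values were seen. The listed cathepsins, chosen with these values in view, had medians of 0.30 against naphthalene and 0.45 against control, above those of the lists in this paragraph. The other cathepsins had 0.14 and 0.10, and the cathepsin inhibitors 0.35 and 0.30. No difference between lists was tested.

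Substrates and partners of single members were read as well. For osimertinib against control, Gzma and Gzmb, granule proteases activated by cathepsin C, were at -0.59 and -0.32, and Ctsc was at 0.39. The other 3 of the 5 granule proteases were too low to be fitted. In the same comparison the 7 NK and cytotoxic cell genes, Gzma among them, had a median of -0.55, with 0 of 7 above 0. The MHC class II genes and Cd74, the invariant chain, had a median of 0.22 for osimertinib against naphthalene and 0.20 against control (7 of 7 and 6 of 7 above 0), beside 0.50 and 0.59 for Ctss. Cd74 itself was at 0.10 and 0.11.

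Markers of cell types known to make cathepsins are given beside them. The summed level of the 10 macrophage genes was 2971 to 3404 in control, 2963 to 5299 in naphthalene and 3591 to 9066 in osimertinib libraries, with Lyz2, a gene that alveolar type 2 cells make as well, at 90.9% to 95.1% of it. All 10 were above 0 for osimertinib against control with a median of 0.54 (0.40 without osimertinib 3). The 9 alveolar macrophage genes summed to 441 to 454, 435 to 665 and 543 to 1084, with most of it from Chil3 (a mean of 399 over all libraries). For osimertinib against control 7 of the 9 were above 0, the lowest at -0.79, with a median of 0.45 (0.20 without osimertinib 3). The 8 genes of lipid-associated macrophages, such as Apoe, summed to 572 to 641, 540 to 704 and 705 to 940. The 12 fibroblast genes, led by Col3a1, summed to 1153 to 1461, 1237 to 1494 and 1662 to 2102, and the 10 alveolar type 2 genes to 12807 to 14396, 14020 to 20577 and 15032 to 30037. None of the genes of these 5 lists was at 0 in any library. The part of these cell types in the cathepsin values was not tested.

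Per 1000 units of the fibroblast sum, Ctsk was 5.31 to 5.86 in control, 6.62 to 8.91 in naphthalene and 5.29 to 14.6 in osimertinib libraries. Osimertinib 5, which had the highest fibroblast sum, fell to the control level. Per 1000 units of the macrophage sum Ctsk was 1.99 to 2.56, 2.08 to 3.34 and 2.67 to 5.27, so every osimertinib library was above every control. With Lyz2 left out of that sum, a choice made after its values were seen, it was 27.8 to 30.8, 35.6 to 38.9 and 34.8 to 62.9, again with every osimertinib library above control. Per 1000 units of the lipid-associated macrophage sum it was 11.7 to 12.5, 15.7 to 18.3 and 15.8 to 26.3. Ctsd was 86.5 to 92.7, 69.7 to 88.0 and 86.4 to 118 per 1000 units of the macrophage sum, overlapping between osimertinib and control, as it did without Lyz2. Ctsh was 8.57 to 9.14, 8.0 to 9.34 and 7.94 to 10.7 per 1000 units of the alveolar type 2 sum, overlapping among all groups. It overlapped as well per 1000 units of the macrophage sum, at 36.8 to 42.3, 33.3 to 44.2 and 35.1 to 40.2. Ctss was 606 to 647, 647 to 753 and 766 to 986 per 1000 units of the 8 dendritic cell genes, so its osimertinib libraries stayed above the rest on that scale. Those genes, led by Itgax, had no common direction. For osimertinib against control 4 of the 8 were above 0, with a median of -0.01 and a range of -0.52 to 0.61. Per 1000 units of the macrophage sum Ctss was 21.3 to 25.8, 17.9 to 23.8 and 13.3 to 34.5, with the lowest of all libraries in osimertinib 3, and there the groups overlapped, as they did without Lyz2 (282 to 310, 275 to 317 and 271 to 411).

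**Figure D5:**
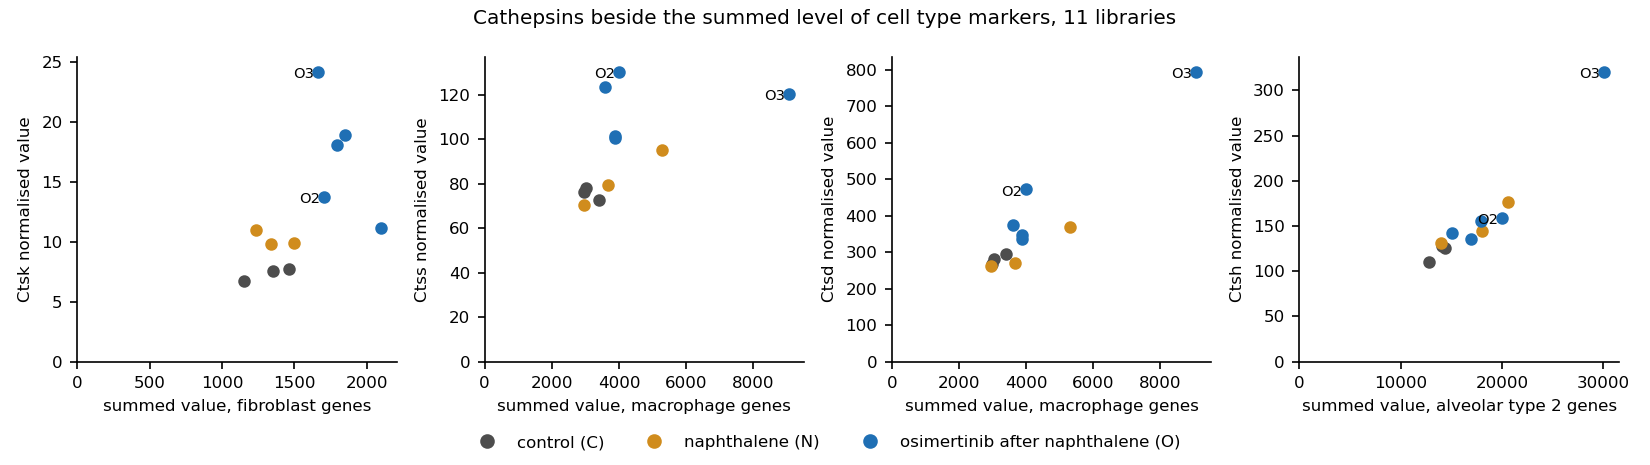
Each point is 1 of the 11 libraries: Ctsk against the summed fibroblast genes, Ctss and Ctsd against the summed macrophage genes, and Ctsh against the summed alveolar type 2 genes, all in normalised units on axes from 0. Ctsh lies along a line with the alveolar type 2 sum up to osimertinib 3 at 321 and 30037, while Ctsk spans 11.1 to 24.2 across osimertinib libraries whose fibroblast sums run from 1662 to 2102.

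The genes of osteoclasts, the cell type best known for Ctsk, overlapped across the groups. Their sum was 93.0 to 111 in control, 104 to 112 in naphthalene and 94.8 to 106 in osimertinib libraries. Of 8 genes, 5 were fitted, with a median of -0.05 for osimertinib against naphthalene and 0.04 against control. Acp5, the tartrate-resistant phosphatase, was 9.54 ± 1.3, 11.9 ± 2.15 and 11.8 ± 3.96. The fusion genes Dcstamp and Ocstamp did not reach the level for fitting, and Dcstamp was at 0 in 2 libraries, both genes being named here after their values were seen.

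Neutrophil genes, a further source of lysosomal proteases, summed to 399.7 in naphthalene 3 and 403 in osimertinib 3, against 32.0 to 72.2 in the other 9 libraries. Those 2 libraries held the highest Ctsk, Ctsh, Ctsz, Ctsd and Ctse values of their groups. B cell genes went the other way, with sums of 138 to 220 in control, 151 to 219 in naphthalene and 40.8 to 107 in osimertinib libraries. The part of either in the cathepsin values was not tested.

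Across the 11 libraries the members fell in a loose group. Pearson's r of log2(value + 1) was 0.94 for Ctsz with Ctsd and 0.91 for Ctsh with Ctsd, and Ctsk had r of 0.83 with Ctss, 0.81 with Ctsz, 0.80 with Ctsd, 0.74 with Ctsb and 0.70 with Ctsh. Ctsk had r of only 0.45 with Ctsc and 0.41 with Ctsl. These values describe 11 libraries that share groups, scaling and the library osimertinib 3.

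Among 11695 genes with a mean of at least 5, those most like Ctsk over the 11 libraries were Cxxc1 (r = 0.89), Ulk2 (0.88), Mmp2 (0.86), Clec4n (0.85) and Ccdc141 (0.85). Clec4n encodes dectin-2, a C-type lectin of macrophages and dendritic cells, and was 6.67 ± 0.197, 7.30 ± 2.46 and 14.3 ± 5.74 in the 3 groups. For Ctss they were Itgax (0.95), the integrin CD11c of dendritic cells and alveolar macrophages, Mpeg1 (0.93), a pore-forming protein of macrophages, and Lpin3 (0.90). Itgax was 35.4 ± 1.10, 36.4 ± 9.92 and 55.1 ± 8.42.

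For Ctsh the most alike were Serpinb6b, Lyz2 and Sfta2 (each 0.97), of which Lyz2 is the lysozyme of macrophages and alveolar type 2 cells. For Ctsd they were Ccl21a (0.98), Phf11d and Ramp1 (0.97 each), and for Ctsz they were Fuca1 (0.95), Ccl21a (0.95) and Cd68 (0.95), a glycoprotein of macrophage lysosomes. For Ctsb they were Slc16a6 (0.95), Frk (0.92) and Fyttd1 (0.92), for Ctsc Kcnj15 (0.93), Slco4c1 (0.92) and P2ry14 (0.92), and for Ctsl Ocel1 (0.95), Gm14440 (0.92) and Dennd3 (0.91). For Ctse, whose values rest on at most 20 reads, no likeness is read.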

How the data were processed

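Lung RNA was depleted of ribosomal RNA and made into directional libraries, per the labels' protocols. Build GRCm39 and the tools edgeR, Bowtie2, Trimmomatic 0.38 and RSEM 1.3.0 are listed, without roles, per the submitters' processing notes. The authors deposited a normalised signal, not counts: CPM of a scaled library size. All values (100%) were whole multiples of the value of 1 read within 0.01, and the implied library sizes equalled those of edgeR's TMM method. No column lacked a sample (0).

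Gene names and transcript lengths came from GENCODE M21 (GRCm38), which named 23123 IDs and left 132 unnamed. The length used was that of the best-supported, then longest transcript. Promoter sequences came from RefSeq (GRCm38.p6), so no coordinate belongs to the files' own build. No cathepsin had values identical to another gene's.

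Genes with a mean of at least 1 entered limma 3.58.1 under R 4.3.3 as log2(value + 1), with a variance trend, 3 groups in 1 fit and 8 residual degrees of freedom. P-values were adjusted by Benjamini-Hochberg over 16225 genes with a threshold of 0.05. The fit was tested on simulated data. This scale understates the change of low genes such as Ctsk. edgeR 4.0.16 and DESeq2 1.42.0 were run on the recovered reads. Other alternatives changed the pseudocount, filter, scaling, weights, block and libraries used. No 2 libraries of a group were duplicates: the smallest chi-square between them was 3.66 per degree of freedom.

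The members, lists and tests were chosen with earlier results of these data known. Named genes were the 9 cathepsins, up to 3 genes with the highest mean from a list, the 5 most like Ctsk and the 3 most like each other cathepsin, with exceptions said where they stand. Fibroblast, macrophage and other marker genes were summed without estimating cell numbers. Deviations of same-numbered naphthalene and osimertinib libraries from their group means had correlations of 0.12, 0.16 and 0.52 for numbers 1 to 3. Only the libraries of number 3, which are the 2 with high neutrophil genes, correlated best with their own number. The labels do not say that numbers mark pairs, and the main fit was unpaired. Replicate numbers entered only 1 alternative, a block applied to all 3 comparisons.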

Additional observations from a re-analysis of the deposited data

Results flagged for a closer look

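In the osimertinib group, 3 of the 9 cathepsins had 1 library far from the other 4, by a test of the gap to the nearest library against the whole range, and in each it was osimertinib 3. Ctsh was 321 there (the gap was 0.878 of the range), Ctsz was 81.7 (0.737) and Ctse was 1.78 (0.856), the last on 20 reads. Chance alone marks about 1 in 20 groups, and the 3 genes share the library, so they are not separate events. In the same library the summed macrophage, alveolar type 2 and neutrophil genes were the highest of the group (9066, 30037 and 403), and the part of these in the 3 cathepsins was not tested.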

How the results depend on the processing

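Counts of called genes moved as follows, from 0 between naphthalene and control, 0 between osimertinib and naphthalene and 1 between osimertinib and control, in that order. Library weights gave 5, 4 and 149, DESeq2 11, 21 and 75, equal totals 15512, 14278 and 88, and leaving out osimertinib 2 and 3 together 38, 47 and 2. Only the 2 groups compared gave 21 and 1 for the first 2. For osimertinib against naphthalene, equal totals without the highest-share gene gave 7, osimertinib 2 alone 2 and quantile normalization 1. For osimertinib against control, equal totals without that gene, no variance trend and the replicate block each gave 0. Leaving out 1 library gave 0 to 12 (12 without osimertinib 2), 0 to 11 (11 without osimertinib 2, 4 without osimertinib 3) and 0 to 2 (0 without any 1 control, osimertinib 1 or osimertinib 5). With equal totals 26 of the 15512 were higher, 14252 of the 14278 and 9 of the 88.

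The replicate block gave 0, 0 and 0 calls. It put Ctsk at 0.80 for osimertinib against naphthalene (adjusted p = 0.330), Ctss at 0.62 and Ctsd at 0.81, and changed no call of a cathepsin. Numbers 4 and 5 exist in the osimertinib group alone, so under the block these differences are osimertinib 1 to 3 against naphthalene 1 to 3. In the other comparisons, deviations of same-numbered libraries had correlations of -0.06, 0.20 and -0.09 for naphthalene against control. They were -0.04, 0.07 and -0.15 for osimertinib against control. In both, only number 2 correlated best with its own number.

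Of 632 recomputed cathepsin differences, 42 moved by at least 1 SD between libraries. Of these, 22 came with equal totals, which puts the median gene at -1.47, 1.12 and -0.35 in the 3 comparisons, and 18 with equal totals without the highest-share gene (at -0.47, 0.28 and -0.19). The other 2 were Ctss and Ctsc, at 0.68 and 0.28 in osimertinib 2 alone against naphthalene. Equal totals called all 8 cathepsins in the first 2 comparisons, lower and then higher. Ctsk, Ctss and Ctsd were above 0 under every alternative for osimertinib against control (0.77 to 1.25, 0.22 to 0.71 and 0.27 to 0.89) and against naphthalene (from 0.40, 0.40 and 0.25). Between naphthalene and control, Ctsk was below 0 with equal totals alone (-0.97), Ctsc, Ctsh, Ctsd and Ctss with both equal-totals scalings, Ctsd and Ctss also without naphthalene 3 (-0.08 and -0.02), and Ctsz changed sign in 6 of 26. Ctsb and Ctsl against control for osimertinib were below 0 with equal totals (-0.22 and -0.23) and without the highest-share gene (-0.06 and -0.07), and Ctsz with equal totals (-0.12). Between osimertinib and naphthalene, Ctsc changed sign in 8 of 27 and Ctsh without osimertinib 3 (-0.01) and without osimertinib 2 and 3 (-0.05). Depth limits Ctsk in the naphthalene libraries (24 to 31 reads) and Ctse in all.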

Other observations

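Genes of club cells had log2 medians of -0.42 for naphthalene against control and -0.43 for osimertinib against control, with 0 of 8 above 0 in either, and 3 and 5 of the 8 had an unadjusted p under 0.05, as had 7.46% and 4.8% of all genes. No gene of that list was called by limma or edgeR, DESeq2 called 0 and 1, and limma with library weights called 0 and 2, beside 0.0681% and 0.465% of all genes under DESeq2 and 0.0308% and 0.918% with library weights.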
